A study of Danio rerio with 24 samples.

Results

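The SoxB transcription factors of the zebrafish were followed through 8 groups of retinas and whole embryos. The members were sox2, sox3, sox19a, sox19b, sox21a and sox21b, and they were found by the gene symbol that the platform annotation gives to each probe set. These 6 genes, of 8793 named on the array, had 11 probe sets, of 15502 tested. A probe set is a set of short oligonucleotides that reports 1 transcript as 1 intensity. Both genotypes were sampled, wild type (WT) and the young mutant (yng), in dissected retinas and in whole embryos, at 36 and 52 hours post fertilization (hpf). Each of the 8 groups had 3 arrays, and each array carried RNA of 1 pool of 10 retinas or 10 embryos, except that the pools of yng retina at 36 hpf held 20 retinas. The yng mutation lies in smarca4a (brg1), which encodes a motor subunit of SWI/SNF, a chromatin remodeller, and yng retinas are known to fail in neuronal differentiation. Strain AB is named in the labels of 23 of the 24 arrays. The mutation is present in every cell of a yng animal, and the retina was not the only mutant tissue.

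SoxB proteins bind DNA through an HMG box, a small DNA-bending domain, and usually act with a partner protein of the POU or Pax family. Those of the SoxB1 group, sox2, sox3, sox19a and sox19b in this set, activate transcription and keep neural cells in the progenitor state; in the mouse retina Sox2 is needed for progenitors to stay competent to divide and to make neurons. Those of the SoxB2 group, sox21a and sox21b, mostly repress transcription and counteract SoxB1 proteins on shared targets, which in chick favours neuronal differentiation.

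The transcript of smarca4a bore out the genotype labels: its brighter probe set ran from 3134 to 4158 in the 12 WT arrays and from 757 to 1251 in the 12 yng arrays, with no overlap. Tissue labels were checked with marker lists. The summed intensity of 8 muscle genes was 63.2 to 393 in the 12 retina arrays and 81428 to 96316 in the 12 embryo arrays, and that of 8 skin genes was 202 to 297 against 39109 to 49536. Summed lens markers (7 measured) lay at 199.8 to 3804 in retinas and 6668 to 19039 in embryos, blood markers (8) at 1819 to 5553 and 18555 to 21616, and markers of pigment cells and pigment epithelium (4) at 397 to 691 and 1487 to 2132. Summed markers of brain outside the eye (14) did not separate the tissues, at 5634 to 9585 in retinas and 5645 to 8838 in embryos. Median array intensity was 145.3 to 165.3 in retinas and 223.3 to 240.7 in embryos. Differences are on the scale log2(intensity + 16) after quantile normalization of the 24 arrays together, ± SE from a limma model of all 24 arrays, with n = 3 arrays per group. A call means an adjusted p (Benjamini-Hochberg, over all probe sets) under 0.05. The offset of 16 makes the change of a dim probe set look smaller. The limma model had no term for the hybridization day, so its p-values reflect variation between pools and between days together. In bulk RNA, fewer cells of a type and less RNA per cell cannot be told apart. Each genotype was washed on a fluidics station of its own and each combination of tissue and age on a module of its own, so the effects of station and genotype, and of module and tissue or age, cannot be told apart.

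One array stood apart from its group before any comparison. WT retina 36 hpf replicate 1 had 274 probe sets (1.77% of all) at least 2-fold above the mean of the other 2 arrays, and its lowest correlation within the group was 0.9722. Among them were 3 SoxB genes, sox19a at 1035, sox21b at 832 and sox21a at 95.4. The same array was high in some of the listed midbrain and hindbrain genes: en1b was 191 there against 7.98 and 6.53 in replicates 2 and 3, en2b was 191 against 48 and 4.19, and dmbx1a was 375 against 76.8 and 16.9. The summed level of all 14 measured markers of brain outside the eye was 6054 in replicate 1 and 6182 and 5910 in replicates 2 and 3. Apart from en1b, en2b and dmbx1a, the markers together were thus lower in replicate 1 than in replicates 2 and 3. The sum of all 14 does not separate retinas from embryos, so it cannot measure other brain tissue in an array. The part of other brain tissue in the SoxB values was not tested. SoxB differences that rest on this array are given with and without it, while marker differences and correlations are given with all arrays.

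**Figure D1:**
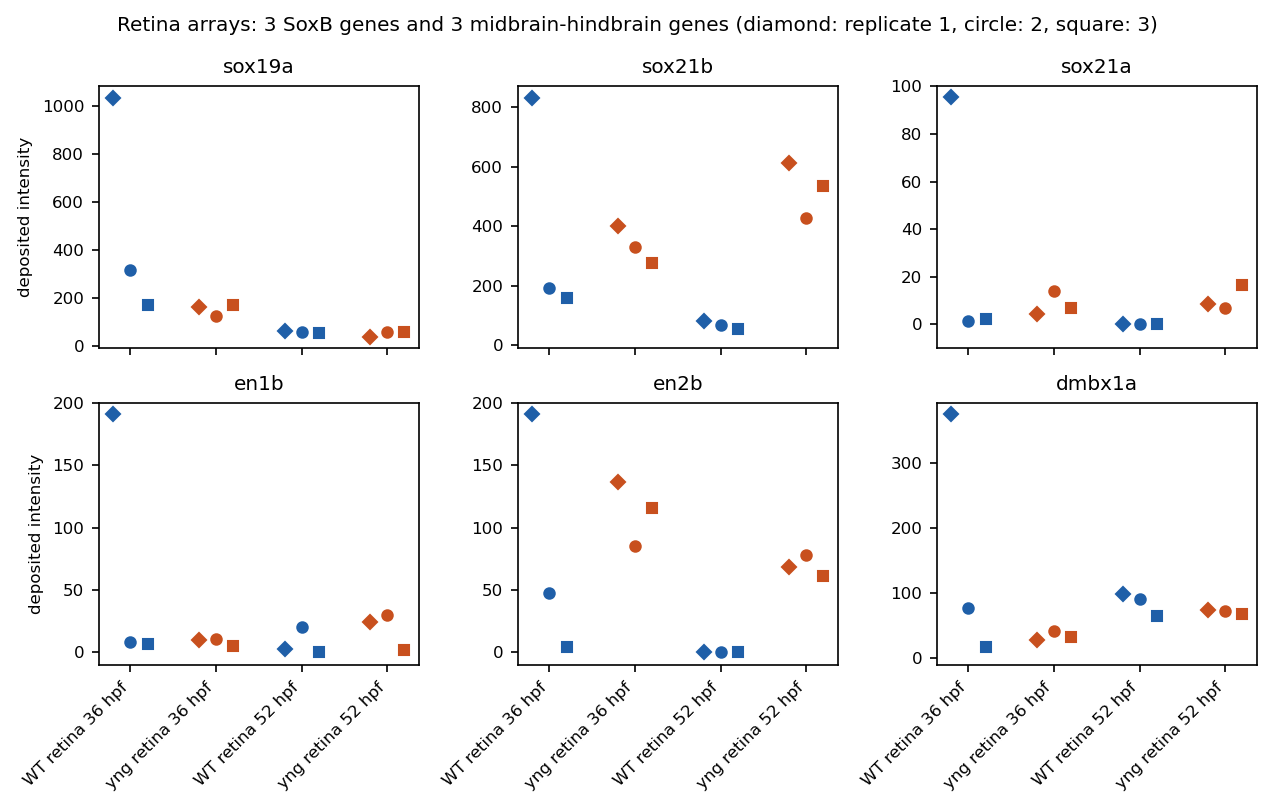
Deposited intensity of sox19a, sox21b, sox21a and of the midbrain-hindbrain genes en1b, en2b and dmbx1a in the 12 retina arrays, by group (blue WT, orange yng; diamond, circle and square are replicates 1, 2 and 3). WT retina 36 hpf replicate 1 is the highest array in all 6 panels, at 1035 for sox19a and 832 for sox21b.

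Genotype was compared first in retinas at 52 hpf, when WT retinal cells are differentiating. Both sox3 and sox21b were higher in yng, sox3 in all 3 of its probe sets and sox21b in its 1 probe set, and no SoxB probe set was called lower. That made 4 of 11 probe sets called, all of them higher, where 19.7% of all probe sets were called and 10% were called higher. The median difference of the 11 was 0.25, against 0.04 for all probe sets. Arrays of the 2 genotypes did not overlap in 5 of the 11 probe sets, as in 33.6% of all.

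The activator sox3, a SoxB1 gene of neural and placodal progenitors, has a bright probe set, Dr.20010.8.A1_at. In WT retinas at 52 hpf it read 4203, 4797 and 4591, and in yng retinas 8159, 8635 and 7242. Every yng array lay well above every WT array. The difference was 0.83 ± 0.10 (limma adjusted p = 2.31e-06), or 1.78-fold. The second probe set, Dr.1691.12.S1_at, read 523, 582 and 569 in WT and 1494, 1233 and 1554 in yng, a difference of 1.29 ± 0.21 (adjusted p = 0.000124). The dim one, Dr.18836.3.S1_at, read 54.5, 60.2 and 55.9 in WT and 162, 179.8 and 118 in yng, a difference of 1.26 ± 0.15 (adjusted p = 2.96e-06). The genotypes overlapped in none of the 3 probe sets. Within the 3 hybridization days the bright one gave 0.99, 0.79 and 0.72, the second 1.54, 0.95 and 1.38, and the third 1.44, 1.39 and 0.95.

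The repressor sox21b (Dr.14800.1.A1_at) showed the widest gap between genotypes of the family. Its intensity was 80.2, 68.7 and 54.4 in WT retinas at 52 hpf and 612, 428 and 535 in yng retinas. The lowest yng array was thus far above the highest WT array. The difference was 2.71 ± 0.34 (limma adjusted p = 5.13e-06), or 6.54-fold, and within the 3 days it was 2.78, 2.37 and 2.97. Leaving out any 1 array of either group gave 2.57 to 2.85. Markers of other tissue moved with it in part. Lens markers were higher in yng for 4 of 7 measured (cryba4, crygmxl2, crybb1 and crygm2c), and their sum was 199.8 to 252 in WT and 3090, 3804 and 511 in yng. In the yng array with the low lens sum, replicate 3, which was still above the WT range, sox21b read 535. There the bright and the dim sox3 probe sets were at their lowest of the yng group, at 7242 and 118. The sox3 probe set Dr.1691.12.S1_at was at its highest, at 1554. The pigment epithelium marker rpe65a (1.21) and the skin marker anxa1c (0.69) were also higher in yng. The blood markers lcp1 and coro1a and the muscle marker ckma were lower. Of 14 markers of brain outside the eye 3 were higher (en2b, egr2b and otx2b) and 2 lower (gbx2 and barhl2). Both of the lower genes rose with age in WT retinas, gbx2 by 3.57 and barhl2 by 1.77. Whether their levels come from other brain tissue or from the retina itself was not tested. The sum of the 14 was 8866 to 9585 in WT and 9038 to 9223 in yng, but such a sum does not separate retinas from embryos. The midbrain-hindbrain boundary gene en2b was listed at 0 in all 3 WT arrays and was 68.2, 77.8 and 61.6 in yng, while en1b was 2.67, 20.6 and 0 in WT and 24, 30 and 1.87 in yng. The log2 ratio of the 3′ to the 5′ gapdh control, a sign of RNA or labelling quality, was 0.38 higher in yng. The part of these markers and of RNA quality in the sox3 and sox21b differences was not tested.

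The other members did not pass at this age. The central SoxB1 gene sox2 (Dr.5379.1.A1_at) read 3989, 4150.0 and 3791 in WT and 4559, 4786 and 4040.3 in yng. Replicate 3 of yng overlapped the WT arrays. The difference was 0.25 (95% interval 0.01 to 0.49, limma adjusted p = 0.154), and it passed with the hybridization day as a block (adjusted p = 0.0168). Of the neural gene sox19a (Dr.20910.1.S1_at) little signal was seen in either genotype, 63.5, 58.9 and 54.7 in WT and 37.9, 59.8 and 57 in yng (difference -0.18, interval -0.91 to 0.54). Its paralog sox19b differed by 0.21 (interval -0.08 to 0.51) and 0.23 (interval -0.20 to 0.66) in its 2 probe sets. The second repressor, sox21a, was listed at 0 in all 3 WT arrays and at 8.68, 6.91 and 16.7 in yng, both too low to be read as a difference (adjusted p = 0.314).

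**Figure D2:**
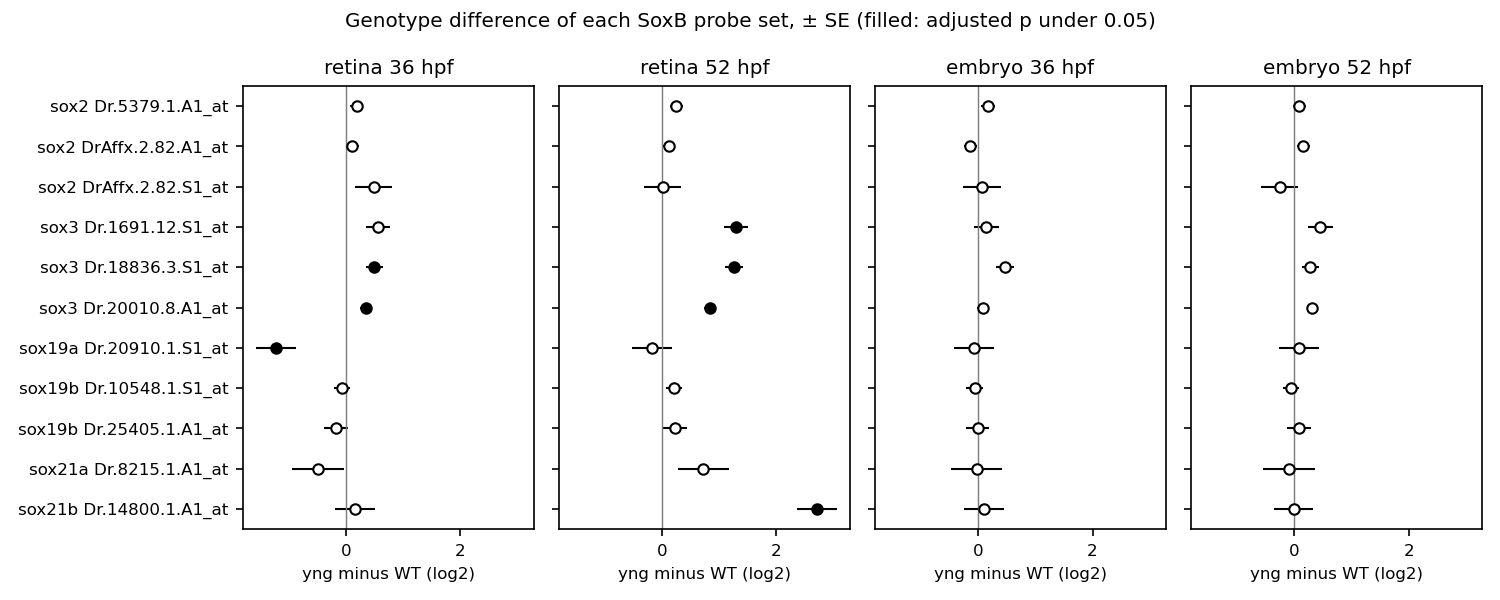
Genotype difference (yng minus WT, log2) ± SE of the 11 SoxB probe sets in retinas and embryos at 36 and 52 hpf; filled points have an adjusted p under 0.05 in the limma model of all arrays. In retinas at 52 hpf the 3 sox3 probe sets lie at 0.83 to 1.29 and sox21b at 2.71, and no point is filled in embryos.

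At 36 hpf sox3 was higher in yng retinas in 2 of its 3 probe sets, and the values of sox19a and sox21b rested on the array that stands apart. Called were 3 of 11 probe sets, 2 higher (sox3) and 1 lower (sox19a), where 9.08% of all probe sets were called, 4.19% higher and 4.9% lower. Arrays of the genotypes did not overlap in 4 of the 11, as in 19.8% of all. The bright sox3 probe set read 5394, 5064 and 4306 in WT and 6429.5, 5768 and 5844 in yng, so the groups did not overlap. It differed by 0.35 ± 0.10 (limma adjusted p = 0.0282), and Dr.18836.3.S1_at, at 76.1, 83.4 and 58.7 in WT and 127, 98.6 and 110.4 in yng, by 0.50 ± 0.15 (adjusted p = 0.0468). Dr.1691.12.S1_at, with 677, 759 and 602 in WT and 1184, 788 and 1172 in yng, differed by 0.56 ± 0.21 and missed the threshold (adjusted p = 0.118), but passed with the day as a block (adjusted p = 0.0414). All 3 probe sets were higher in yng within each day, from 0.05 to 0.86. At this age none of the 7 lens markers was called by genotype, 4 of 8 blood markers were lower in yng (lcp1 at -1.22, slc4a1a at -1.07, hbae3 at -0.85 and coro1a at -0.56), 2 of 14 markers of brain outside the eye were higher (pax8 and emx2) and 1 was lower (gbx2), and the log2 3′ to 5′ gapdh ratio differed by -0.21. Their part in the SoxB differences was not tested. The calls were fragile. That of the bright sox3 probe set was lost without WT replicate 3, without yng replicate 1 (the array with a recorded wash error) and without yng replicate 3, over a range of 0.24 to 0.43 and an adjusted p of up to 0.151. That of Dr.18836.3.S1_at was lost without WT replicate 1 or 3 and without yng replicate 1 or 3 (0.37 to 0.59, adjusted p up to 0.194).

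The sox19a probe set read 1035, 317 and 171 in WT retinas at 36 hpf and 163, 126 and 169 in yng. WT replicate 3 was nearly level with the yng arrays. The difference was -1.22 ± 0.35 (limma adjusted p = 0.0299). Without WT replicate 1 it was -0.55 and no longer passed (adjusted p = 0.126), without any 1 yng array it did not pass either, and within days it was -2.47, -1.19 and 0.00.

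For sox21b, WT retinas at 36 hpf read 832, 191 and 159.7 and yng retinas 400.1, 329 and 277. The 3 yng arrays lay between WT replicate 1 and the other WT arrays. The difference over all arrays was 0.16 (interval -0.56 to 0.88, limma adjusted p = 0.868), and without WT replicate 1 it was 0.85 and passed (adjusted p = 0.00387). Day by day it was -0.99, 0.73 and 0.74. Without that array sox21b was higher in yng retinas at both ages. The paralog sox21a read 95.4, 1.24 and 2.1 in WT and 4.19, 14 and 7.08 in yng and did not pass (adjusted p = 0.614). Neither did sox2, with 4596, 4693 and 3881 in WT and 5288, 4899 and 4693 in yng in its bright probe set (0.19, interval -0.05 to 0.43), nor the 2 probe sets of sox19b (-0.06 and -0.18). Another sox2 probe set, DrAffx.2.82.S1_at, differed by 0.48 and passed only with the day or the replicate number as a block (adjusted p = 0.0075 for the day).

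In whole embryos limma called none of the 11 probe sets by genotype, at either age, where 5.95% of all probe sets were called at 36 hpf and 5.9% at 52 hpf. An unadjusted p under 0.05 was reached by 1 probe set at 36 hpf and by 2 at 52 hpf, and the fit without moderated variance called 0 and 1. The nearest were sox3 probe sets. At 52 hpf the bright one read 4611, 4653 and 4796 in WT and 5856, 5778 and 5886 in yng, with no overlap and little spread (0.32 ± 0.10, limma adjusted p = 0.068, and 0.0337 with the day as a block). At 36 hpf Dr.18836.3.S1_at read 48.1, 61.5 and 60.2 in WT and 79.1, 84.7 and 89.2 in yng (0.47 ± 0.15, adjusted p = 0.0828, and 0.0237 with the day as a block). The sox21b gene showed no call, with 914 to 1185 over all 12 embryo arrays and differences of 0.10 (interval -0.62 to 0.82) at 36 hpf and -0.01 (interval -0.72 to 0.71) at 52 hpf. The bright sox2 probe set, at 2806 to 3021 in WT and 2969 to 3619.7 in yng at 36 hpf, differed by 0.17 (interval -0.07 to 0.41), and by 0.09 (interval -0.15 to 0.33) at 52 hpf. For sox19a the differences were -0.07 and 0.08 and for sox21a -0.03 and -0.08, with overlapping arrays. An embryo contains its retinas as a small share of its tissue.

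Whether the genotype difference itself changed was tested with interaction terms. In retinas, the sox21b difference was larger at 52 than at 36 hpf by 2.55 ± 0.49 (limma adjusted p = 0.00254), the 1 call among the 11 probe sets, where 4.11% of all were called and 1.25% were called higher. Leaving out any 1 of the 12 arrays gave 1.86 to 2.95, past the threshold each time, with 1.86 without WT retina 36 hpf replicate 1. Fitted on the 4 retina groups alone it missed (adjusted p = 0.0557). For sox3 the interaction was 0.48 (adjusted p = 0.0604), 0.76 (adjusted p = 0.0518) and 0.73 (adjusted p = 0.253) in Dr.20010.8.A1_at, Dr.18836.3.S1_at and Dr.1691.12.S1_at, and with the day as a block the first 2 passed (adjusted p = 0.0217 and 0.014).

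The genotype difference at 52 hpf was also larger in retinas than in embryos, by 2.72 ± 0.49 for sox21b (limma adjusted p = 0.00101), by 0.98 ± 0.22 for sox3 Dr.18836.3.S1_at (adjusted p = 0.00676) and by 0.52 ± 0.14 for the bright sox3 probe set (adjusted p = 0.0277). These were 3 of 11, all higher, where 6.84% of all probe sets were called and 2.55% were called higher. The first 2 passed whichever array was left out. The bright sox3 probe set missed in 8 of 12 such fits, those without replicate 2 or 3 of WT embryo, 1 or 3 of WT retina, 1 or 2 of yng embryo, or 1 or 2 of yng retina, all at 52 hpf, with 0.48 to 0.57 and an adjusted p of up to 0.0785. At 36 hpf genotype by tissue gave 0 calls by limma (2.37% of all probe sets, 1 member with an unadjusted p under 0.05, 0 without moderated variance). Genotype by time in embryos gave 0 as well (0.194% of all, 0 members with an unadjusted p under 0.05, 0 without moderated variance).

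**Figure D3:**
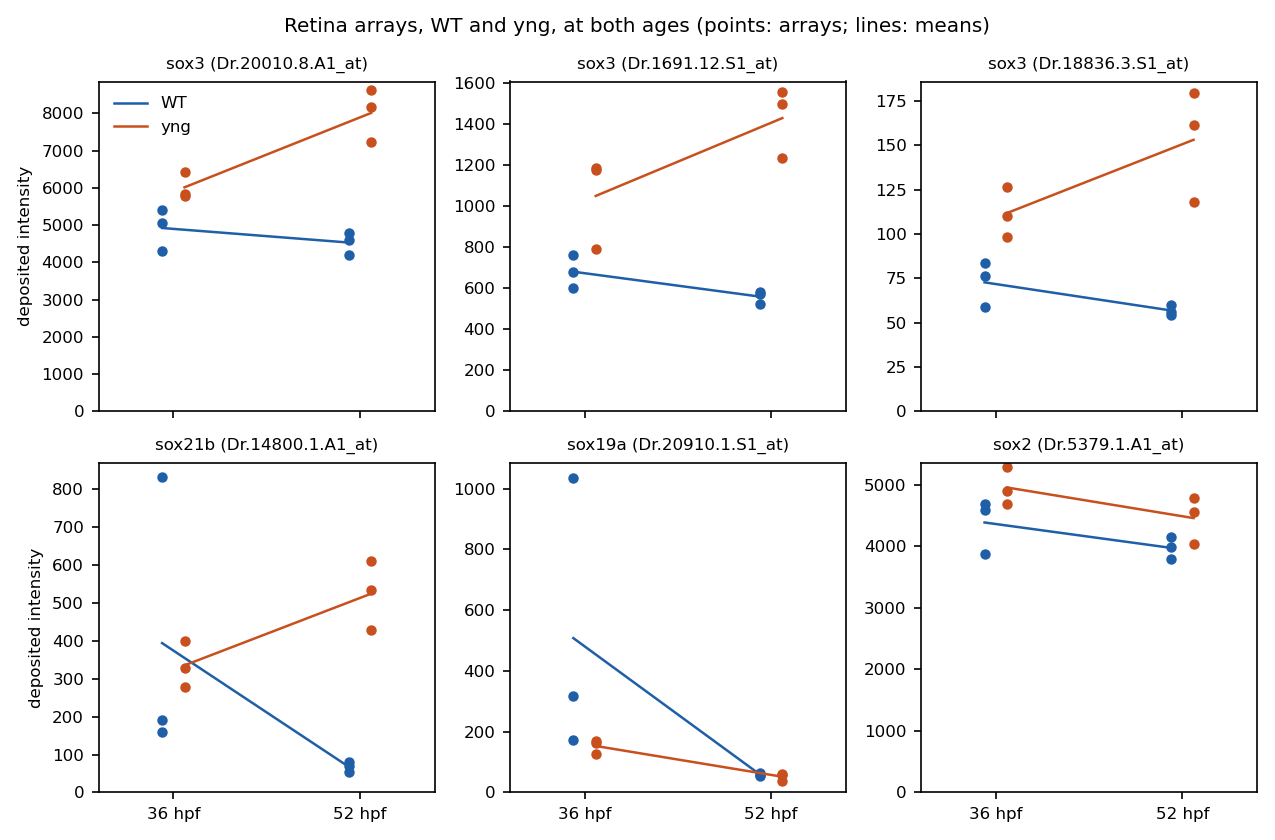
Deposited intensity of the 3 sox3 probe sets, sox21b, sox19a and the bright sox2 probe set in WT (blue) and yng (orange) retinas at 36 and 52 hpf; points are arrays and lines join group means. In sox3 and sox21b the yng arrays are the highest at 52 hpf (7242 to 8635 in the bright sox3 probe set, 428 to 612 in sox21b), while sox19a is at 37.9 to 63.5 in both genotypes at that age.

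Between 36 and 52 hpf in WT retinas 5 of 11 SoxB probe sets fell and none rose, where 36.9% of all were called, 20.8% lower. The share called in either direction is near that of all probe sets, and the share called lower is above it in this fit. The number called was 3 of 11 on intensities as deposited, without moderated variance and on the contrast's groups alone. The difference was -2.51 ± 0.35 for sox19a (limma adjusted p = 6.24e-06), -2.0 ± 0.34 for sox21b (adjusted p = 8.20e-05), -0.60 ± 0.14 for sox19b (Dr.10548.1.S1_at, adjusted p = 0.00189) and -0.41 ± 0.15 for sox3 Dr.18836.3.S1_at (adjusted p = 0.0417). The 5th call was sox21a (adjusted p = 0.0408), listed at 0 in all 3 arrays at 52 hpf and at 1.24 and 2.1 in 2 of the 3 at 36 hpf, so no size is given for it. Without WT retina 36 hpf replicate 1, sox19a (-1.84) and sox21b (-1.31) still passed. In that fit sox21a (adjusted p = 0.345) and the sox3 probe set (-0.35, adjusted p = 0.13) did not. These 2 calls were also lost without any 1 WT array at 52 hpf, and that of sox3 without WT retina 36 hpf replicate 2. The sox19b probe set read 193, 134 and 182 at 36 hpf and 99, 112 and 139 at 52 hpf, an overlap of 1 array. Its call held whichever of the 6 arrays was left out. The other sox19b probe set and the other 2 sox3 probe sets were not called. Mean log2 values at 36 and 52 hpf were 12.38 and 12.22 in the bright sox3 probe set and 9.68 and 9.33 in Dr.1691.12.S1_at. In sox19b Dr.25405.1.A1_at they were 6.65 and 6.29. Markers of other tissue and the RNA control moved over the same interval: 3 of 7 lens markers were lower (cryba4 at -2.27, crybb1 at -2.11 and crygmxl2 at -2.07) and 0 higher, 5 of 14 markers of brain outside the eye were lower (en2b the furthest, at -2.13) and 2 higher (gbx2 and barhl2), 2 of 8 blood markers were lower, and the log2 3′ to 5′ gapdh ratio was at -0.42. Of 4 pigment markers 1 was higher and 1 lower, 3 of 8 muscle markers were higher, and 1 of 8 skin markers was lower. The part of all these in the SoxB falls was not tested. The bright sox2 probe set went from 3881 to 4693 at 36 hpf to 3791 to 4150 at 52 hpf, a difference of -0.22 (interval -0.46 to 0.02) that passed with the day as a block (adjusted p = 0.0207).

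In yng retinas over the same interval 3 of 11 were called, 1 higher and 2 lower, where 25.6% of all were called, 12.2% higher and 13.4% lower. The fall of sox19a was -1.48 ± 0.35 (limma adjusted p = 0.00274), from 126 to 169 at 36 hpf down to 37.9 to 59.8. The sox2 probe set DrAffx.2.82.S1_at fell by 1.04 ± 0.33 (adjusted p = 0.0209), with 594, 426 and 799 at 36 hpf and 295, 184 and 396 at 52 hpf, and the other sox2 probe sets differed by -0.16 and 0.02 with no call. The bright sox3 probe set rose by 0.32 ± 0.10 (adjusted p = 0.0218), the 1 rise in the family. Both smaller calls depended on single arrays. That of sox3 was lost without yng retina 36 hpf replicate 2 or 3 or 52 hpf replicate 1 or 2 (0.26 to 0.38, adjusted p up to 0.104), and that of sox2 without 36 hpf replicate 1 or 3 or 52 hpf replicate 2 (-1.26 to -0.76, adjusted p up to 0.138). The repressor sox21b did not pass (0.55, interval -0.17 to 1.26), although its 3 arrays at 52 hpf lay above its 3 at 36 hpf. Listed markers and the RNA control moved here too. Of 7 lens markers 1 was higher (crygm2c at 1.87), and of 14 brain markers 3 were higher (gbx2, barhl2 and otx2b) and 1 lower (emx2). Of 4 pigment markers 1 was higher (rpe65a at 1.31) and 2 lower. Of 8 each, 1 blood and 2 muscle markers were higher and 1 skin marker was lower. The log2 3′ to 5′ gapdh ratio was at 0.17. Their part in the SoxB changes was not tested.

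In WT embryos the fall over time was in sox3, 2 of 11 probe sets, where 14.3% of all were called and 6.99% fell. The bright one went from 6746, 6592 and 6727 to 4611, 4653 and 4796 (-0.53 ± 0.10, limma adjusted p = 0.000789) and Dr.1691.12.S1_at from 903, 935 and 1103 to 454, 487 and 637 (-0.98 ± 0.21, adjusted p = 0.00303). Neither group overlapped the other. In yng embryos limma called 0 of 11 (8.83% of all), with 4 at an unadjusted p under 0.05 and 1 without moderated variance. There the same sox3 probe sets differed by -0.30 (adjusted p = 0.0656) and -0.67 (adjusted p = 0.0576), and both passed with the day as a block (adjusted p = 0.0247 and 0.0168). The difference between genotypes in this change was 0.23 (interval -0.06 to 0.52) and 0.31 (interval -0.32 to 0.95) and was not called. For sox19a the embryo values were 1954 to 2487 at 36 hpf and 1146 to 1390.0 at 52 hpf in WT, and 1839 to 2489.9 and 1204 to 1554 in yng. The ages did not overlap in either genotype, and neither difference passed (-0.83, limma adjusted p = 0.131, and -0.68, adjusted p = 0.303). The same held for sox21a, with 178, 261 and 297 at 36 hpf against 87.2, 98.5 and 146 at 52 hpf in WT (-1.06, adjusted p = 0.14), and 161, 205 and 362 against 69.8, 104 and 138 in yng (-1.11, adjusted p = 0.156). By contrast sox21b stood at 957 to 1032 and 964 to 1151 in WT embryos at the 2 ages (0.07, interval -0.64 to 0.79). The SD of sox19a log2 values was 0.17 and 0.15 in WT embryos at 36 and 52 hpf. It was 1.23 in WT retinas at 36 hpf, which enter the same variance. For sox19a and sox21a the missed threshold thus does not show a steady level in embryos.

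**Figure D4:**
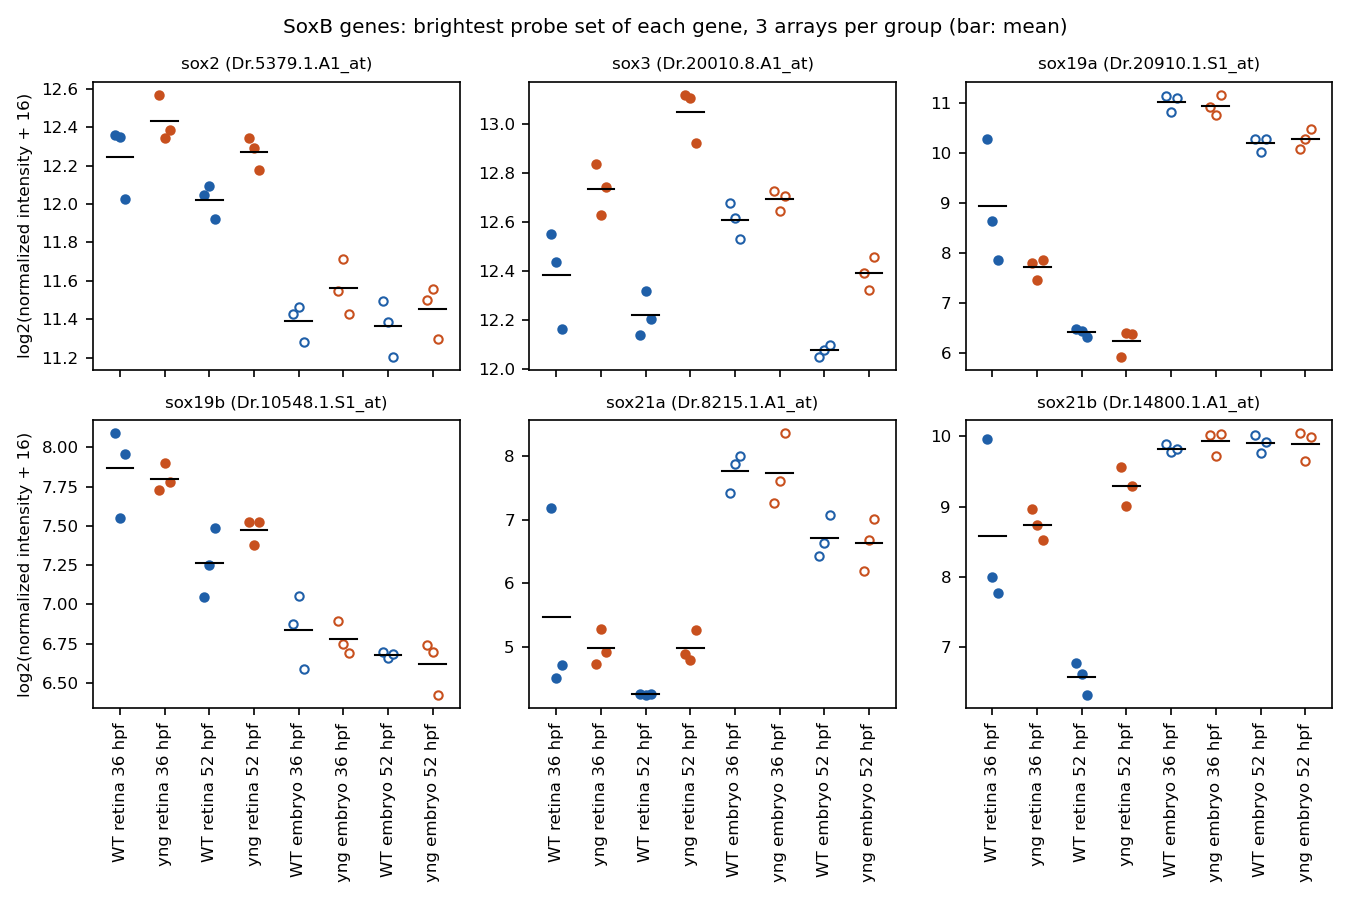
Level of the brightest probe set of each SoxB gene in all 24 arrays, as log2(normalized intensity + 16), by group (blue WT, orange yng; filled retina, open embryo; the bar is the mean of 3 arrays). For sox2 all 12 retina arrays lie above all 12 embryo arrays, and for sox19a and sox21a WT retina 36 hpf replicate 1 is the highest retina array.

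Retinas and embryos were set against each other within genotype and age. Quantile normalization put the median difference of all probe sets (retina minus embryo) at 0.37 to 0.40, against -0.08 to -0.02 as deposited, so values are given relative to that median, first normalized and then as deposited. Called were 9 of 11 SoxB probe sets in WT at 36 hpf (73.6% of all), 9 in WT at 52 hpf (70% of all), 8 in yng at 36 hpf (75.1% of all) and 9 in yng at 52 hpf (73.7% of all), which are shares close to those of all probe sets.

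The sox2 gene was on the retinal side. Its bright probe set read 3791 to 5288 in retinas and 2629 to 3619.7 in embryos, and relative to the median it was 0.46 and 0.66 higher in WT retinas at 36 hpf and 0.29 and 0.48 higher at 52 hpf. The genes sox19a and sox21a were lower in retinas in every pairing. Relative to the median, sox19a was at -2.48 and -2.42 in WT at 36 hpf, -4.15 and -4.11 in WT at 52 hpf, -3.64 and -3.62 in yng at 36 hpf and -4.43 and -4.36 in yng at 52 hpf. Without WT retina 36 hpf replicate 1 the WT value at 36 hpf was -2.76 in place of -2.09, both not relative to the median. For sox21a the embryo arrays read 69.8 to 362 and the retina arrays 0 to 16.7, apart from that array at 95.4. No size is given for sox21a, since the retina values lie at or near 0.

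Of the family, sox21b had the tissue difference that varied most with genotype. Relative to the median it was -3.69 and -3.67 in WT at 52 hpf and -1.0 and -0.99 in yng at 52 hpf, where the interaction above applies. At 36 hpf it was -1.63 and -1.60 in WT and -1.58 and -1.58 in yng, and this near equality rested on WT retina 36 hpf replicate 1: not relative to the median, the WT value was -1.24 with that array and -1.93 without it, against -1.18 in yng. Not relative to the median, the yng difference at 52 hpf was -0.60 (limma adjusted p = 0.118) and passed on intensities as deposited (-1.02). For the bright sox3 probe set the sign relative to the median was negative at 36 hpf in both genotypes (-0.61 and -0.37 in WT, -0.36 and -0.20 in yng) and in WT at 52 hpf (-0.23 and -0.03), and positive in yng at 52 hpf (0.27 and 0.48). Its dim probe set Dr.18836.3.S1_at was on the retinal side in all 4.

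**Figure D5:**
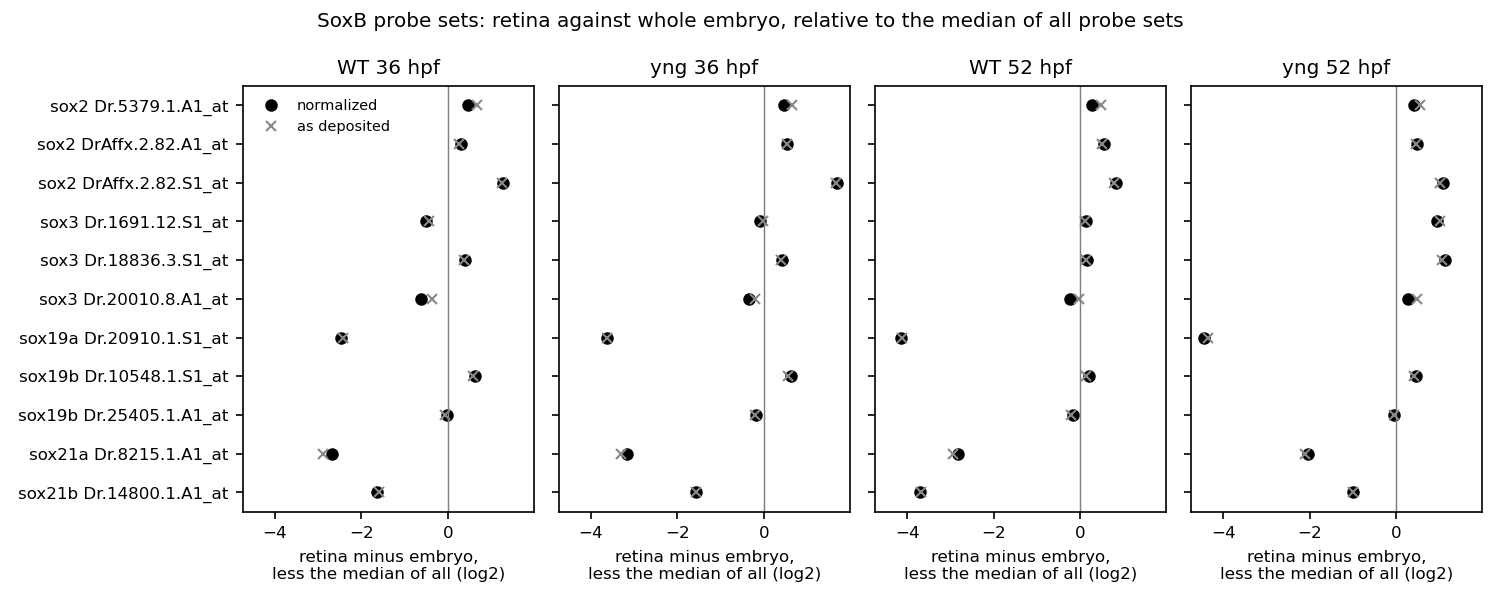
Retina minus embryo (log2) of the 11 SoxB probe sets less the median of all probe sets, normalized (filled circles) and as deposited (crosses), by genotype and age. The sox19a probe set lies between -4.43 and -2.42 in every panel, and sox21b is at -3.69 in WT at 52 hpf and at -1.0 in yng at 52 hpf (normalized).

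Probe sets of a gene were compared over the 24 arrays, which span both tissues. Pearson's r was 0.896, 0.755 and 0.744 among the 3 sox3 probe sets, 0.932, 0.794 and 0.781 among the 3 of sox2, and 0.548 between the 2 of sox19b. For sox2, the probe set DrAffx.2.82.S1_at was highest in replicate 3 of each of the 8 groups, for example 248 against 154 and 136 in WT embryos at 36 hpf, which was not so for the other sox2 probe sets. The SoxB genes share a conserved HMG box, and cross-hybridization between paralogs was not examined. Levels are not compared between probe sets.

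The 8 groups were ordered by mean deposited intensity, a scale on which the array medians of retinas and embryos differ. The order of sox21b put the 4 embryo groups on top (group means of 994 to 1076), with no call between them by genotype or time, then yng retina 52 hpf (525), WT retina 36 hpf (394), yng retina 36 hpf (336) and WT retina 52 hpf (67.8). Without replicate 1 WT retina 36 hpf was at 176 and came after yng retina 36 hpf. On the normalized log2 scale it came after with all arrays too (8.58 against 8.74). For the bright sox3 probe set the deposited order ran from yng retina 52 hpf (8012), yng embryo 36 hpf (7143), WT embryo 36 hpf (6688) and yng retina 36 hpf (6014) through yng embryo 52 hpf (5840.0), WT retina 36 hpf (4921) and WT embryo 52 hpf (4687) to WT retina 52 hpf (4531). On the normalized log2 scale yng retina 36 hpf (12.74) came next after yng retina 52 hpf (13.05). There WT embryo 52 hpf (12.07) was lowest, below WT retina 52 hpf (12.22). Neighbours in both sox3 orders that were compared and not called were the 2 embryo groups at 36 hpf (0.09, interval -0.12 to 0.29) and WT embryo and WT retina at 52 hpf (normalized retina minus embryo 0.15, interval -0.06 to 0.35, not relative to the median).

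The genes whose log2 values followed each brightest probe set most closely over the 24 arrays were as follows, as a description. For sox21b they were en2b (Pearson's r = 0.939), the midbrain-hindbrain gene, metrnla (0.921) and an uncharacterised gene (0.91). Those of sox3 were rgl1 (0.809), crabp2a (0.795), a retinoic acid binding protein gene, and myclb (0.789), a lower likeness than for the others. For sox19a they were an uncharacterised gene (0.977), the Wnt receptor fzd10 (0.966) and zic6 (0.966), a neural and dorsal zinc finger gene, and for sox21a the homeobox gene dbx1b (0.959), foxa (0.949) and cnpy1 (0.943). The closest to sox2 were taf6l (0.979), rprd1b (0.977) and ash2l (0.974), and the closest to sox19b were pold1 (0.958), a DNA polymerase subunit, rpap1 (0.957) and rbbp8 (0.956). For all but sox3, retinas and embryos lay apart in most pairings, and the correlations share that split. The bright sox3 probe set had no steady split. Its retina minus embryo values were -0.22 and 0.15 in WT and 0.04 and 0.66 in yng at 36 and 52 hpf (normalized, not relative to the median).

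Partner genes and other Sox genes were counted from lists, 1 probe set per gene. Of 10 measured POU and Pax genes, limma called 3 higher and 2 lower in yng retinas at 52 hpf, where 19.7% of all probe sets were called, with a median difference of 0.35 against 0.04 for all. They were pax2a, a gene of the optic stalk and the midbrain-hindbrain boundary (1.45 ± 0.22), pou3f1 (0.80), pax2b (0.57), pax6b (-0.47) and pax6a (-0.31), both eye selector genes. At 36 hpf in retinas pax2a was the 1 call (1.30 ± 0.22, adjusted p = 0.000453). In embryos there were 0 calls at 36 hpf and 1 at 52 hpf, pax6a (-0.45). Of all probe sets 9.08% were called in retinas at 36 hpf, and 5.95% and 5.9% in embryos at 36 and 52 hpf.

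Of 12 other Sox genes measured, 2 were higher and 3 lower in yng retinas at 52 hpf (median 0.10). Of all probe sets 19.7% were called (median 0.04). One of the Sox genes called higher, sox1a, is a further SoxB1 gene that is not among the members. Its brightest probe set read 16.9, 19.4 and 23.3 in WT and 59.8, 96 and 41.5 in yng, with no overlap (1.12 ± 0.30, limma adjusted p = 0.00945). A second sox1a probe set gave 0.88 (adjusted p = 0.0101) and the third -0.02. The SoxE gene sox10, of neural crest and glia, was lower (-0.81 ± 0.16), as were the SoxC genes sox4b (-0.43) and sox11a (-0.36), while sox11b, a paralog of the latter, was higher (0.63). At 36 hpf in retinas 0 were higher and 2 lower, sox10 (-0.90) and sox9b (-0.73), the latter a gene of Müller glia and crest. In embryos sox11a and sox11b were higher at both ages (0.47 to 0.58), sox9b was lower at both (-0.71 and -0.52), and sox10 was lower at 52 hpf (-0.91). Of all probe sets 5.95% were called in embryos at 36 hpf and 5.9% at 52 hpf.

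Lists of the states that SoxB factors act on were counted in the same way, against 9.08% of all probe sets called in retinas at 36 hpf and 19.7% at 52 hpf, and 5.95% and 5.9% in embryos. Of 19 measured neural progenitor genes, 6 were higher and 1 lower in yng retinas at 36 hpf (median 0.22), among them the retinal homeobox genes rx3 (0.97) and six6a (0.90) and the Notch effector her6 (0.79). At 52 hpf 1 was higher, hes6 (1.17), and 3 lower, meis1b (-0.83), six6a (-0.44) and six3a (-0.29), with a median of -0.04. From 36 to 52 hpf in WT retinas 9 of the 19 fell and 4 rose, where 36.9% of all probe sets were called, 20.8% lower. Among those that rose were rx3 (2.85), six6a (0.91) and six3a (0.23). Which cells these rises come from was not tested. Of 14 neuronal differentiation genes, 1 was higher and 6 lower at 36 hpf, with stmn2a (-2.61), gap43 (-2.25), ascl1b (-2.21) and elavl4 (-2.20) the furthest down. At 52 hpf 2 were higher, the proneural genes neurog1 (1.60) and ascl1a (1.23), and 6 lower, among them neurod6a (-3.39), stmn2a (-2.07) and gap43 (-2.04). In yng embryos 2 progenitor genes were higher and 0 lower at 36 hpf, and 1 was higher and 1 lower at 52 hpf; of the neuronal genes 2 were higher and 0 lower at 36 hpf, and 2 higher and 1 lower at 52 hpf.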

How the data were processed

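Nanogram amounts of total RNA from pooled retinas or embryos were amplified, labelled (per the labels' protocols) and hybridized to 1-colour Affymetrix zebrafish arrays. The deposited table holds 1 linear intensity per probe set and array (0 to 20110.5), and the authors' summarisation and scaling steps are not stated in the labels or headers used here. Of 15617 probe sets, 115 controls were removed. The platform annotation names 1 gene for 10795, several for 135 and none for 4572, and 1 symbol was updated through the RefSeq table. Arrays were quantile normalized, an offset of 16 was added, and a model of 8 group means with 16 contrasts was then fitted, using limma 3.58.1 (R 4.3.3) (residual df 16, prior df 4.25). Python 3.11.15, pandas 2.3.3 and matplotlib 3.10.9 were used for tables and plots. The steps were tested on simulated data.

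The members, the lists (other Sox genes, POU and Pax partners, neural progenitor, neuronal differentiation, and markers of lens, brain outside the eye, pigment cells, blood, muscle and skin) and the tests were chosen with earlier results of these data known. Named were all members in every contrast, the 3 genes most like each member, up to 4 called genes per list and genotype contrast, and markers that moved with a result. Alternatives were no normalization, normalization within tissue, offsets of 1 and 64, leaving out probe sets under an intensity of 100 in every group, the replicate number or the hybridization day as a block, no variance moderation, the contrast's groups alone, and leaving out each array. Replicate numbers followed the hybridization day except for WT embryo 52 hpf replicate 3. Detection calls, sequences and genome positions were not used here.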

Additional observations from a re-analysis of the deposited data

Results flagged for a closer look

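In 4 cases, the difference between genotype effects passed its own interaction test. The genotype difference of sox21b (Dr.14800.1.A1_at) was larger by 2.55 in retinas at 52 hpf than in retinas at 36 hpf, and by 2.72 in retinas than in embryos at 52 hpf. That of sox3 was larger in retinas than in embryos at 52 hpf by 0.98 in Dr.18836.3.S1_at and by 0.52 in Dr.20010.8.A1_at. The first value was 1.86 without WT retina 36 hpf replicate 1, and it missed the threshold when fitted on the retina groups alone. The last value, 0.52, missed the threshold in most of the fits that left out 1 array.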

How the results depend on the processing

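Of 2888 values of the 176 SoxB differences under the alternatives, 2734 kept their side of the threshold, and their direction too except for 120 that changed sign with no call either way, 78 lost a call, 75 gained one and 1 reversed. The reversal was sox3 Dr.20010.8.A1_at, retina against embryo in yng at 36 hpf, at -0.25 on intensities as deposited against 0.04. Relative to the median of all probe sets both values were negative, at -0.20 as deposited and -0.36 normalized. The counts of called SoxB probe sets that moved by over 1.5 times were as follows, and other counts moved by less; beyond the settings' own construction, the cause was not tested. With the replicate block and with the day block alike, the genotype count in retinas at 36 hpf went from 3 to 5, in embryos from 0 to 1 at both ages, the time count in yng embryos from 0 to 3 and genotype by time in retinas from 1 to 3. An offset of 64 and the dim filter alike gave 1 for genotype in embryos at 52 hpf, 2 for time in yng embryos and 3 for genotype by time in retinas. Intensities as deposited gave 3 (from 5) for time in WT retinas, and both they and normalization within tissue gave 5 (from 9) for tissue in WT at 52 hpf and 2 for genotype by time in retinas. The fit without moderated variance gave 1 for genotype in retinas at 36 hpf, 1 in embryos at 52 hpf, 3 for time in WT retinas, 1 for time in yng embryos and 2 for genotype by time in retinas. The contrast's groups alone gave 0 for genotype in retinas at 36 hpf, 3 for time in WT retinas, 4 (from 2) in WT embryos, 1 in yng embryos and 0 for genotype by time in retinas. Leaving out 1 array gave 0 to 3 for genotype in retinas at 36 hpf, 4 to 4 at 52 hpf and 0 to 0 in embryos; 3 to 8 for time in WT retinas, 2 to 2 in WT embryos, 1 to 4 in yng retinas and 0 to 1 in yng embryos; 8 to 9 for tissue in 3 pairings and 9 to 9 in yng at 52 hpf; 1 to 4 and 0 to 0 for genotype by time in retinas and embryos; and 0 to 1 and 2 to 4 for genotype by tissue at 36 and 52 hpf.

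Over all probe sets, the genotype calls in retinas at 36 hpf were 1408, with 2865 under the replicate block, 2793 under the day block and 331 on the groups alone; at 52 hpf they were 3057, 4818, 4770 and 2694. In embryos they were 922, 2247, 2198 and 449 at 36 hpf, and 915, 2116, 1458 and 646 at 52 hpf. The time calls were 2221, 3893, 3037 and 1843 in WT embryos, 1369, 2775, 2724 and 916 in yng embryos, and the genotype by time calls in retinas 637, 1406, 1353 and 384. Genotype by time in embryos gave 30, 66, 44 and 23, genotype by tissue 367, 816, 765 and 184 at 36 hpf and 1061, 1971, 1760 and 1101 at 52 hpf.

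The replicate numbers are not shown by the labels to pair samples. After group means were removed, same-numbered arrays correlated at a median of 0.331 (lowest 0.0743), against -0.169 for other numbers, and 24 of 24 arrays matched their own number best. With 3 arrays a group, removing the group means ties these medians to each other, so they are not independent values. Precision is limited by 3 arrays a group, by dim probe sets (sox21a in retinas, sox19b, 1 of sox2, 1 of sox3), and by the 1 array that stands apart.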
